A study of Mus musculus with 2 samples.

Results

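The genes of the NF-kB subunits and of the inhibitors that feed back on them were compared between whole-lung RNA of knockout and control mice. The 10 genes Nfkb1, Nfkb2, Rel, Rela, Relb, Nfkbia, Nfkbie, Nfkbiz, Tnfaip3 and Tnip1 were taken by their symbols, and all 10 were found among the 22072 genes of the deposited values. The knockout mice carried Pdgfb-iCreER together with FoxF1 fl/fl, and the control mice carried Foxf1 fl/fl alone, so the floxed alleles were common to both groups and Cre was present in the knockout group only. Pdgfb-iCreER is a Cre recombinase that acts in endothelial cells once tamoxifen is given, and Foxf1 encodes a forkhead transcription factor of lung endothelium and mesenchyme. Per the labels, the tissue was lung, the background strain was C57/BL6, and each library held the pooled RNA of more than 1 mouse, with 1 library per group. Age, sex, number of mice and tamoxifen schedule are not stated in the labels, and effects of Cre and of Foxf1 loss cannot be told apart.

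NF-kB is a family of dimeric transcription factors held in the cytoplasm by IkB proteins. In the canonical branch, receptors for TNF, interleukin-1 and microbial products activate the IKK kinase, IkB is degraded, and dimers such as RelA with p50 enter the nucleus. In the non-canonical branch, the kinase NIK drives processing of the Nfkb2 product p100 to p52, the partner of RelB. NF-kB induces several of its own inhibitors and subunits, which forms feedback loops, and in lung endothelium, epithelium and macrophages it is known for driving adhesion molecules and cytokines.

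Depth, estimated from the deposited coverage, was about 10.6 M reads on transcripts in the knockout library and 13.4 M in the control library. Values are FPKM, which divide the fragments of a transcript by its length and by the mapped fragments of the library, summed over the transcripts of a gene. Ranges after values are 95% intervals for counting error only. With 1 library per genotype there is no replicate check and no test, and every difference below compares these pools. The targeted gene, listed as Foxf1a, had 15.7 FPKM in the knockout pool, against 72.1 FPKM in the control pool. Lung identity was plain, with Sftpc, the surfactant protein C gene, at 13793 FPKM in the knockout pool and 15925 FPKM in the control pool. In whole-lung RNA, fewer cells of a type and less RNA per cell cannot be told apart.

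All 10 genes had a mean FPKM of 1 or more, the floor used for counts over genes, which 12929 genes passed. The largest difference among them was in Relb, and the abundant canonical genes Rela, Nfkb1 and Nfkbia differed by at most 1.11-fold. On the log2(FPKM + 1) scale, which understates differences of low genes, 7 of the 10 lay above equality and 3 below, where 56.8% of all genes lay above. The median log2 ratio of the 10, knockout minus control, was 0.15, and over all 12929 genes it was 0.05. Relb alone was at least 1.5-fold higher and none was at least 1.5-fold lower. Over all genes, 9.41% were higher and 4.63% were lower by that measure, 14.0% in either direction, so 1 of 10 is near the background share. With totals taken without the 50 most abundant genes, 999 genes were higher and 758 lower, in place of 1217 and 599, and Relb was still past 1.5-fold. The counting interval of the FPKM ratio lay above 1 for 4 of the 10 genes and below 1 for 1, where it did so for 33.5% and 22.0% of all genes, 55.5% together.

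The order of the levels was the same in both pools: Nfkbia, Rela, Nfkb1, Nfkb2, Tnip1, Relb, Nfkbiz, Tnfaip3, Nfkbie and Rel. Tnip1 and Relb, next to each other in that order, did not differ beyond counting error in the knockout pool, with a ratio of levels of 1.10 (0.944 to 1.28), whereas in the control pool Tnip1 was 1.88-fold above Relb (1.60 to 2.21). In the control pool the neighbours not separated by counting error were Nfkb2 and Tnip1, with a ratio of 1.04 (0.922 to 1.17), and Relb and Nfkbiz, also with a ratio of 1.04 (0.874 to 1.24). All other neighbours in the order differed beyond counting error within each pool. The mean level of Nfkbia was above 92.6% of genes over the floor and that of Rel above 3.60%.

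**Figure D1:**
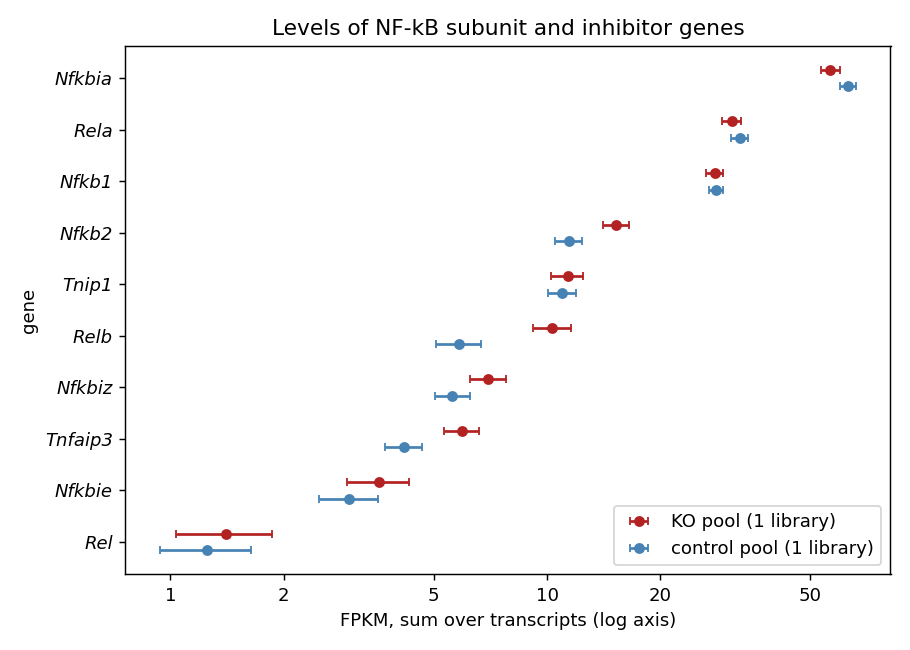
FPKM of the 10 genes (log axis) in the knockout pool and the control pool, 1 library each, with bars for the 95% counting interval. The order of the genes is the same in both pools, and the largest gap is in Relb, at 10.3 FPKM in the knockout pool and 5.84 FPKM in the control pool.

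Among the subunits, the canonical pair was the most abundant and was close to level. Rela, which encodes the transactivating subunit p65 (chr19:5637490-5648130, mm9), had 30.9 FPKM (29.1 to 32.8) in the knockout pool and 32.5 FPKM (30.8 to 34.2) in the control pool. Its intervals overlapped, and the FPKM ratio was 0.953 (0.880 to 1.03). The log2 ratio of Rela, -0.07, depended on scaling. It was -0.13 under upper quartile and under median ratio scaling, and -0.15 with totals without the 50 most abundant genes. These lay farther from equality than the counting half-width of 0.11. Nfkb1, which encodes p105, the precursor of p50 (chr3:135247619-135354511, mm9), had 27.8 FPKM (26.4 to 29.3) in the knockout pool and 28.1 FPKM (26.8 to 29.4) in the control pool, a ratio of 0.992 (0.926 to 1.06). These were the most precisely measured subunits, with about 1087 and 1488 reads in the knockout library.

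The non-canonical pair was higher in the knockout pool. Relb, which encodes the RelB subunit (chr7:20191571-20214787, mm9), had 10.3 FPKM (9.18 to 11.6) in the knockout pool and 5.84 FPKM (5.09 to 6.68) in the control pool, from about 295 and 215 reads. The intervals did not overlap, the ratio was 1.77 (1.48 to 2.12), and 93.5% of genes over the floor had a lower log2 ratio. Nfkb2, which encodes p100 and p52 (chr19:46379227-46386580, mm9), had 15.2 FPKM (14.0 to 16.5) in the knockout pool and 11.4 FPKM (10.5 to 12.4) in the control pool. Its ratio was 1.33 (1.19 to 1.497), beyond counting error but under the 1.5-fold mark, and its last bases overlap the start of the record of Psd, a gene at 0.856 FPKM in the knockout pool and 1.09 FPKM in the control pool. Together Nfkb2 and Relb made up 29.8% of the summed FPKM of the 5 subunit genes in the knockout pool and 21.8% in the control pool. Rela and Nfkb1 made up 68.6% in the knockout pool and 76.6% in the control pool. The summed FPKM of all 5 subunits was 85.7 in the knockout pool and 79.0 in the control pool.

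Rel, which encodes c-Rel, a subunit known mainly from lymphocytes (chr11:23641729-23670970, mm9), was the lowest at 1.40 FPKM (1.03 to 1.87) in the knockout pool and 1.251 FPKM (0.940 to 1.63) in the control pool. At about 47 and 54 reads its ratio of 1.12 (0.743 to 1.69) did not separate the pools. The T and NK cell markers Cd3e, Cd3d, Cd8a, Nkg7 and Lck summed to 14.1 FPKM in the knockout pool and 17.3 FPKM in the control pool. Only Nkg7, at 5.32 FPKM in the knockout pool and 8.32 FPKM in the control pool, was lower beyond counting error. For the other 4 the counting interval held 1, and Lck lay above equality, at 3.51 FPKM against 2.90 FPKM. All 4 B cell markers lay above equality, 2 of them beyond counting error.

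**Figure D2:**
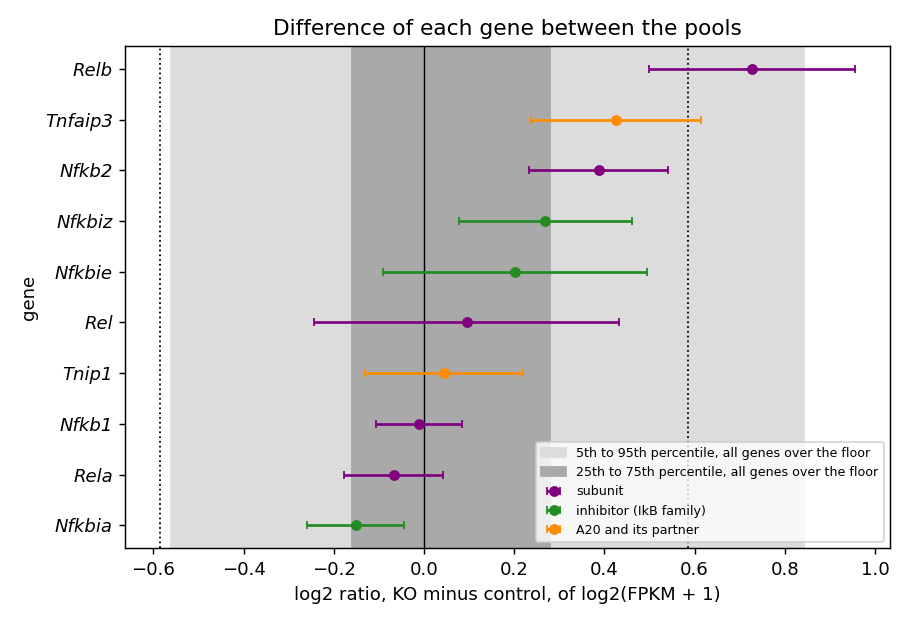
Log2 ratio of each gene, knockout minus control, of log2(FPKM + 1), coloured by role, with 95% counting intervals. Dotted lines mark 1.5-fold, and grey bands give the percentiles of the 12929 genes over the floor. Relb, at 0.73, is the only point past a dotted line.

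The higher Nfkb2 level sat in 1 of its 3 transcripts. The transcript with the most upstream start, NM_001177369, had 11.9 FPKM in the knockout pool and 6.04 FPKM in the control pool, a ratio of 1.97. The second, NM_019408, which starts 958 bases downstream, was lower in the knockout pool, at 3.31 FPKM, against 4.72 FPKM in the control pool. The third, NM_001177370, which starts 1193 bases downstream of the first, was near 0 in the knockout pool (9.34e-06 FPKM) and had 0.652 FPKM in the control pool. The upstream-start transcript thus held 78.2% of the Nfkb2 FPKM in the knockout pool and 53.0% in the control pool. These transcripts share most of their bases, so the division is the authors' estimate and carries more error than the gene total, and no interval was computed for it.

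Windows from RefSeq, build GRCm38.p6, around the annotated start of transcription were matched for 7 of the 10 genes, 10 windows in all, and the 3 Nfkb2 windows have the same spacing as the 3 mm9 records. Windows of Relb, Nfkb1 and Nfkbiz were not used here. The 250 bases before each start were searched on both strands for 2 spellings of the kB site to which NF-kB dimers bind, GGGANNNNCC and GGGGNNTTCC, which can overlap each other. At least 1 of them was present in 10 of 10 windows and in 18.4% of all 32851 windows. GGGANNNNCC was in 9 of the 10 windows and 17.6% of all, and GGGGNNTTCC in 5 of the 10 and 1.26% of all. Both spellings are rich in G and C, the 10 windows ranged from 46.4% to 77.6% G and C, and a match is a run of letters and no evidence of binding. The windows of the first and second Nfkb2 starts are shown because the transcripts from these starts differed between the pools in opposite directions. Each is written 5′ to 3′ on the plus strand, which is the strand of the gene, with matches in capitals, chr19:46304487-46304736 for the first and chr19:46305445-46305694 for the second (GRCm38.p6).
Nfkb2 first start: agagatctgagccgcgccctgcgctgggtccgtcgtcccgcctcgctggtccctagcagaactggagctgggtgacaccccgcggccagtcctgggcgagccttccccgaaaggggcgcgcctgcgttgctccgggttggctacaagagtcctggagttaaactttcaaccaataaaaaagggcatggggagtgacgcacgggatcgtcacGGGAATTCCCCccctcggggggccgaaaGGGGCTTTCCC
Nfkb2 second start: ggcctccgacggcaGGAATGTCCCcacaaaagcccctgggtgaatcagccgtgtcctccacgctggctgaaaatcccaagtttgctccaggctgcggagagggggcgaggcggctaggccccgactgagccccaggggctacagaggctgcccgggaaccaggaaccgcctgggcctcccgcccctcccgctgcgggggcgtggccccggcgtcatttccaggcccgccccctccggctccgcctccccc
The first window holds 2 stretches of matches in its last 39 bases, both overlapping between the 2 spellings. The second holds a single match more than 200 bases upstream of its start, in a sequence that is 72.0% G and C, where the first is 64.8%. Bases after a start were not counted in its window. The third window, not shown, holds 2 matches, among them GGGACTTTCC at chr19:46305705-46305714, which lies just after the second start at 46305695. A link between the matches and the transcript levels was not tested.

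**Figure D3:**
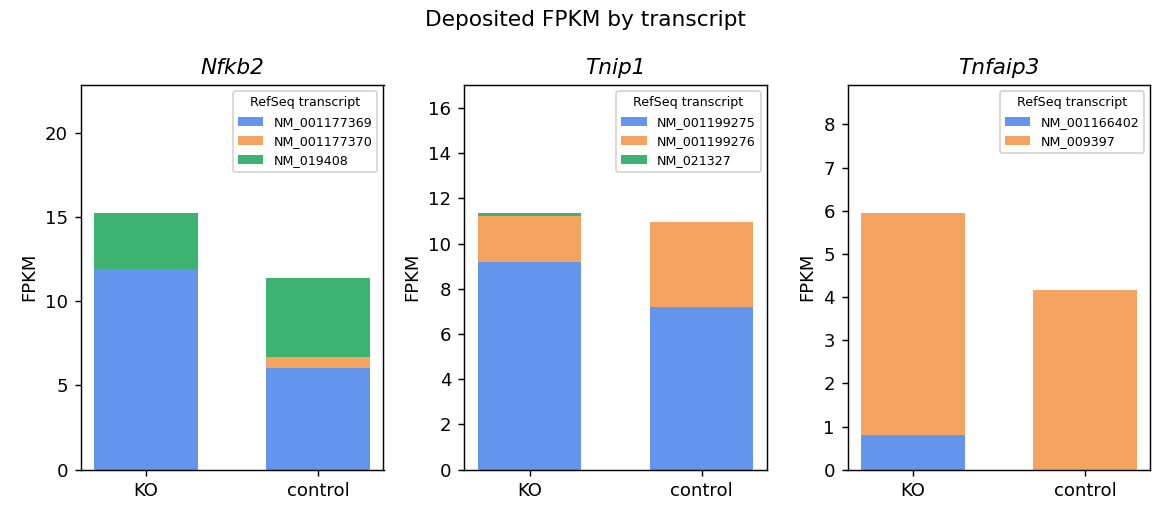
Deposited FPKM of each RefSeq transcript of Nfkb2, Tnip1 and Tnfaip3, stacked, in the knockout pool (left bar) and the control pool (right bar), 1 library each. In Nfkb2 the transcript NM_001177369 has 11.9 FPKM in the knockout pool and 6.04 FPKM in the control pool.

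Of the IkB genes, Nfkbia was slightly lower in the knockout pool, Nfkbiz was higher, and Nfkbie did not separate the pools. Nfkbia, which encodes IkB-alpha, the inhibitor that is degraded and quickly resynthesised on canonical activation (chr12:56590396-56593634, mm9), had 56.5 FPKM (53.3 to 59.9) in the knockout pool and 62.9 FPKM (59.9 to 66.0) in the control pool. The ratio was 0.899 (0.833 to 0.969), below 1 beyond counting error. Nfkbie, which encodes IkB-epsilon (chr17:45692665-45700117, mm9), had 3.58 FPKM (2.95 to 4.31) in the knockout pool and 2.98 FPKM (2.48 to 3.57) in the control pool. Its ratio of 1.20 (0.920 to 1.57) was within counting error. Nfkbiz, which encodes the nuclear IkB-zeta, a cofactor for a subset of NF-kB target genes (chr16:55811490-55838754, mm9), had 6.97 FPKM (6.23 to 7.76) in the knockout pool and 5.61 FPKM (5.03 to 6.24) in the control pool. The ratio was 1.24 (1.06 to 1.449), and of its 3 transcripts NM_001159394 held nearly all the FPKM in both pools.

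Tnfaip3 and Tnip1 encode A20, a ubiquitin-editing enzyme that shuts off signalling below the TNF receptor, and ABIN-1, a ubiquitin-binding protein that works with A20. Tnfaip3 (chr10:18720717-18735216, mm9) had 5.94 FPKM (5.33 to 6.61) in the knockout pool and 4.17 FPKM (3.72 to 4.66) in the control pool. The intervals did not overlap, and the ratio of 1.42 (1.22 to 1.67) was the second highest of the 10. Its longer transcript NM_009397 had 5.13 FPKM in the knockout pool and 4.17 FPKM in the control pool. The transcript NM_001166402 was given 0.810 FPKM in the knockout pool, about 46 reads, and 4.58e-05 FPKM in the control pool. With NM_009397 alone, the log2 ratio of Tnfaip3 was 0.25, in place of 0.42. Tnip1 (chr11:54724289-54776442, mm9) had 11.3 FPKM (10.3 to 12.5) in the knockout pool and 10.97 FPKM (10.04 to 11.97) in the control pool. Its ratio of 1.03 (0.906 to 1.18) was within counting error, and its log2 ratio of 0.04 turned negative under each of the 3 other scalings. Between its transcripts the division differed: NM_001199275 had 9.18 FPKM in the knockout pool and 7.21 FPKM in the control pool, whereas NM_001199276 had 2.06 FPKM in the knockout pool and 3.76 FPKM in the control pool. As for Nfkb2, the transcript divisions of Tnfaip3 and Tnip1 are the authors' estimates, and no interval was computed for them. The 5 inhibitor and brake genes summed to 84.4 FPKM in the knockout pool and 86.6 FPKM in the control pool, of which Nfkbia made up 67.0% in the knockout pool and 72.6% in the control pool.

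The upstream windows of these feedback genes are shown for Nfkbia, Tnfaip3 (the start of its longer transcript, taken as the more upstream of its 2 windows) and Tnip1. They differ in how the matches lie, and the gene totals were lower, higher and near level in the knockout pool. Tnip1 had a single window, which was not matched to a transcript. Its main transcript, NM_001199275, begins at chr11:54769624 (mm9), and its other transcripts begin at chr11:54776442. NM_001199275 held 80.9% of the Tnip1 FPKM in the knockout pool and 65.7% in the control pool. All are on the minus strand of GRCm38.p6 and are written 5′ to 3′ on that strand, with matches in capitals, at chr12:55492648-55492897, chr10:19015411-19015660 and chr11:54962941-54963190.
Nfkbia: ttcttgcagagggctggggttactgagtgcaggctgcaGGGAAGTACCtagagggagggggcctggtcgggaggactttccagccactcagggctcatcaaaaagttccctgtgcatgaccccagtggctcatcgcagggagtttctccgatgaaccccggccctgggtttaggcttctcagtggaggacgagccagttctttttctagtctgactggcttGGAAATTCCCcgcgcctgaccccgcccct
Tnfaip3: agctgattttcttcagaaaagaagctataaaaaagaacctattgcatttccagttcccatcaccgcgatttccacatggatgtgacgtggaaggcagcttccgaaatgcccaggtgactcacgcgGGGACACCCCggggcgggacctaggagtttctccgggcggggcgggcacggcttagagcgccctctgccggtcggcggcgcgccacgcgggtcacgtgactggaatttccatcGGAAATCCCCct
Tnip1: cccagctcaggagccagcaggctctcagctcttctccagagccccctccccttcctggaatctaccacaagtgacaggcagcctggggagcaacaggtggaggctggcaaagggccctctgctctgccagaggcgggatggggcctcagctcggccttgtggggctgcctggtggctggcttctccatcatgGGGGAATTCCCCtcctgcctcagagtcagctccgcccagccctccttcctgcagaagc
In Nfkbia the nearest match, GGAAATTCCC, ends 20 bases before the start. In Tnfaip3 the nearest, GGAAATCCCC, ends 3 bases before it. In Tnip1 matches of both spellings on both strands overlap in one run that ends 47 bases before the start. Rel holds GGAAATCCCC as well, 91 to 82 bases before its start. Every searched window held a match, so there was no window without one to compare with. Matches therefore cannot be set against the direction of a difference, and Relb, Nfkb1 and Nfkbiz had no window used.

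**Figure D4:**
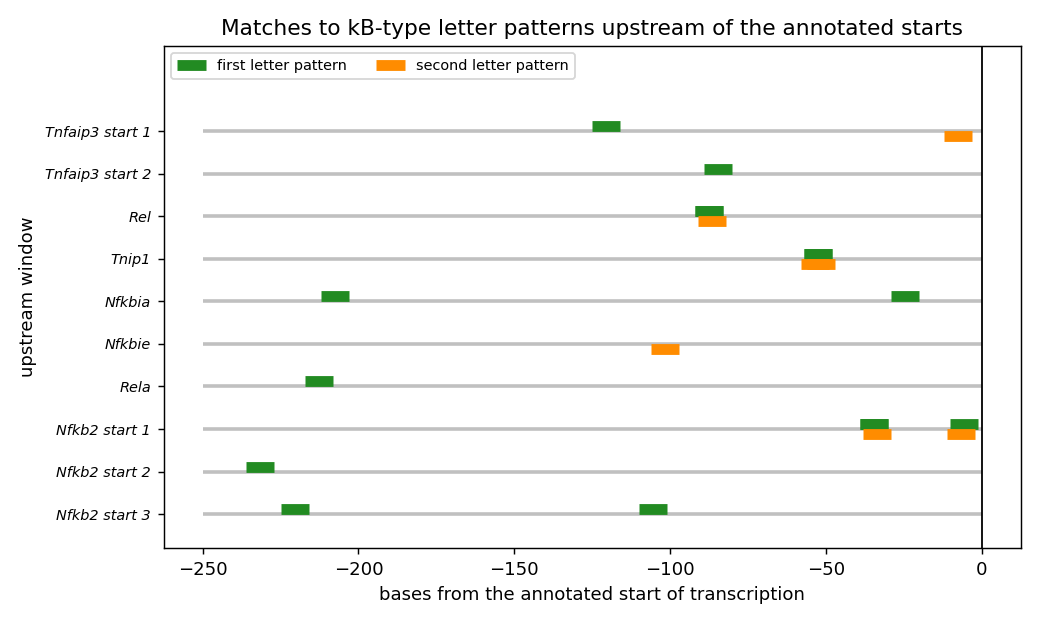
Positions of the matches in the 250 bases before each of the 10 annotated starts, in bases from the start. Green marks GGGANNNNCC, orange marks GGGGNNTTCC, on either strand, and each of the 10 windows holds at least 1 mark.

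The rest of the pathway was described by lists of 114 genes in 5 roles, drawn up with earlier results of these data known. Of the 101 over the floor, 16 lay at least 1.5-fold above equality and 3 as far below, where the shares of all genes were 9.41% and 4.63%. The IKK kinases and adaptors, which carry the signal from receptor to IkB, were close to level. All 29 were over the floor, the median log2 ratio was 0.09, 0 lay 1.5-fold above equality and 1 lay as far below. That one was Traf1, an adaptor of TNF family receptors, at 8.55 FPKM in the knockout pool and 19.0 FPKM in the control pool, a 2.22-fold lower level (1.92 to 2.57). Myd88, the adaptor of Toll-like and interleukin-1 receptors, was the highest of the list at 26.8 FPKM in the knockout pool and 19.3 FPKM in the control pool (ratio 1.39, 1.24 to 1.56). The most abundant were Rbck1, a subunit of the linear ubiquitin ligase, with 34.5 FPKM in the knockout pool and 31.9 FPKM in the control pool, and Tab2, an adaptor of the kinase TAK1, with 22.5 FPKM in the knockout pool and 23.9 FPKM in the control pool. For both genes the counting interval held 1. The kinases nearest to p100 processing, chosen after their values were seen, were Map3k14, the NIK gene, and Chuk, the IKK-alpha gene. Map3k14 had 3.33 FPKM in the knockout pool and 3.11 FPKM in the control pool, within counting error (ratio 1.07, 0.875 to 1.31). Chuk had 19.1 FPKM in the knockout pool and 15.8 FPKM in the control pool (ratio 1.21, 1.10 to 1.33). Of all 29 genes of the list, 18 lay above equality and 11 below.

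Other inhibitors and brakes had 17 of 19 genes over the floor. Their median log2 ratio was 0.04, which was negative under the 3 other scalings. Beside shares of 9.41% and 4.63% of all genes, 1 gene was at least 1.5-fold higher and 1 lower. The higher one was Bcl3, a nuclear IkB that binds p50 and p52, with 11.3 FPKM in the knockout pool and 5.55 FPKM in the control pool (ratio 2.04, 1.68 to 2.49). The lower one was Otud7b, which encodes the deubiquitinase Cezanne, with 13.0 FPKM in the knockout pool and 24.7 FPKM in the control pool, 1.90-fold lower (1.78 to 2.03). The most abundant were Pdlim2, a ubiquitin ligase gene for nuclear p65, with 81.8 FPKM in the knockout pool and 93.5 FPKM in the control pool, and Tax1bp1, which encodes an A20 adaptor, with 56.5 FPKM in the knockout pool and 68.5 FPKM in the control pool.

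Receptors lay mostly above equality. All 18 were over the floor and 17 were above equality, where 56.8% of all genes were. Past 1.5-fold, 4 were higher and 0 lower, where the shares of all genes were 9.41% and 4.63%. The median log2 ratio was 0.36. Tnfrsf12a, the receptor of TWEAK, was the highest, with 38.9 FPKM in the knockout pool and 17.6 FPKM in the control pool (ratio 2.21, 1.91 to 2.57). Tnfrsf1a, the main TNF receptor gene, was the most abundant, with 88.8 FPKM in the knockout pool and 63.2 FPKM in the control pool (ratio 1.40, 1.33 to 1.49). Ltbr, the lymphotoxin beta receptor gene and an input to the non-canonical branch, had 41.3 FPKM in the knockout pool and 34.3 FPKM in the control pool (ratio 1.20, 1.11 to 1.31). Tnfrsf13c, the BAFF receptor gene, was the lowest, with 0.884 FPKM in the knockout pool and 1.14 FPKM in the control pool, within counting error. The ligands had 7 of 12 genes over the floor and a median log2 ratio of 0.44, which was 0.051 over all 12, with 1 at least 1.5-fold higher and 0 lower. It was Il33, an alarmin gene, with 67.7 FPKM in the knockout pool and 34.7 FPKM in the control pool (ratio 1.95, 1.82 to 2.08). Tnfsf12, the TWEAK gene, was the lowest of the list and level, with 27.5 FPKM in the knockout pool and 28.5 FPKM in the control pool. Tnf itself was under the floor, with 1.31 FPKM in the knockout pool and 0.490 FPKM in the control pool.

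Target genes had the widest range. Of the 36 listed, 30 were over the floor. Of these, 10 were at least 1.5-fold higher and 1 lower, where the shares of all genes were 9.41% and 4.63%. The median log2 ratio was 0.32, and over all genes it was 0.05. Saa3 was the highest, with 21.2 FPKM in the knockout pool and 1.43 FPKM in the control pool, and Ccl5, a chemokine gene, was the lowest, with 13.1 FPKM in the knockout pool and 21.9 FPKM in the control pool, 1.68-fold lower (1.30 to 2.18). Lcn2, a target that depends on IkB-zeta in mouse macrophages, had 248 FPKM in the knockout pool and 74.6 FPKM in the control pool. Icam1, an endothelial and epithelial adhesion molecule gene, had 227 FPKM in the knockout pool and 193 FPKM in the control pool (ratio 1.18, 1.14 to 1.21).

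**Figure D5:**
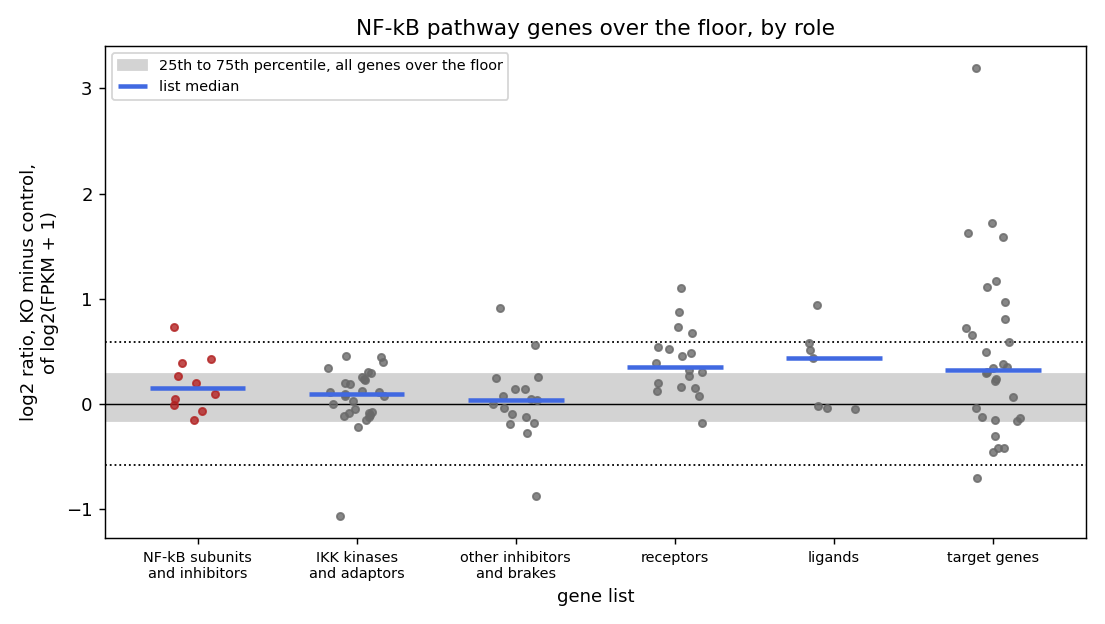
Log2 ratio, knockout minus control, of log2(FPKM + 1) for each gene over the floor, by role, with the median of each list in blue and dotted lines at 1.5-fold. The NF-kB subunits and inhibitors (red, median 0.15) lie nearer to equality than the receptors (median 0.36). The IKK kinases and adaptors (median 0.09) and the other inhibitors and brakes (median 0.04) lie nearer still. The target genes, a longer list, reach from -0.70 to 3.19.

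Markers of cell types that carry NF-kB genes also differed between the pools. Over all genes, 9.41% were at least 1.5-fold higher and 4.63% as far lower, the shares beside which the counts below stand. The macrophage and monocyte markers Cd68, Csf1r, C1qa, C1qb, Mrc1, Siglec5 and Marco summed to 220 FPKM in the knockout pool and 127 FPKM in the control pool, with 4 of 7 at least 1.5-fold higher and 1 lower. The neutrophil markers S100a8, S100a9, Csf3r, Retnlg and Ngp summed to 85.8 FPKM in the knockout pool and 56.1 FPKM in the control pool, with 3 of 5 at least 1.5-fold higher. Pan-leukocyte markers were 3 genes, Ptprc, Laptm5 and Coro1a, that summed to 149.5 FPKM in the knockout pool and 116 FPKM in the control pool, with none past 1.5-fold. Mesenchymal markers, 4 genes led by Col1a2 and Acta2, summed to 501 FPKM in the knockout pool and 240.1 FPKM in the control pool, with 3 of 4 at least 1.5-fold higher. The 6 endothelial markers Pecam1, Cdh5, Tie1, Kdr, Cldn5 and Emcn summed to 914 FPKM in the knockout pool and 886 FPKM in the control pool. That sum joins opposed differences, with 3 genes above equality and 3 below, 2 at least 1.5-fold higher and 1 lower. Pecam1 was level, with 237 FPKM in the knockout pool and 241 FPKM in the control pool, whereas Cldn5 had 150.2 FPKM in the knockout pool and 263 FPKM in the control pool, and Emcn, chosen with its values known, stood at 153 FPKM in the knockout pool and 30.0 FPKM in the control pool. Of the B cell markers, Cd79b had 16.0 FPKM in the knockout pool and 10.99 FPKM in the control pool, a ratio of 1.45 (1.21 to 1.75), and Cd79a had 13.0 FPKM in the knockout pool and 12.1 FPKM in the control pool, within counting error. The 4 alveolar epithelial markers Sftpc, Sftpb, Ager and Hopx summed to 16939 FPKM in the knockout pool and 19661 FPKM in the control pool, each below equality and none past 1.5-fold. None of the markers in these lists was at 0 in both pools. The part of cell composition in the higher Relb, Nfkb2, Tnfaip3 and Nfkbiz was not tested.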

How the data were processed

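Whole-lung RNA was sequenced in 1 knockout and 1 control library, grouped by the genotype in their labels. The authors deposited FPKM values and coverage (aligned bases per transcript base), with a length for each transcript, for 28107 RefSeq records per library, per the file headers. Of upstream steps, the submitters' processing notes name DESeq and the build mm9, without a role; aligner, quantifier and strand use are not stated there. FPKM divides by a library total, so a few abundant genes can shift all values.

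FPKM was summed per gene symbol. Coverage times length peaked at 46.8 bases in both libraries for genes with few reads, taken as 1 read, and exact conditional (Clopper-Pearson) and exact Poisson 95% intervals were computed from these approximate reads. They cover counting error only. The log2 ratio uses a pseudocount of 1 FPKM, counts use a floor of mean FPKM 1 and a fold of 1.5, and no p-values were computed. Starts are counted from 1. The interval script was tested on simulated data. Python 3.11.15, numpy 2.4.6, scipy 1.17.1 and pandas 2.3.3 were used.

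The members and lists were chosen with earlier results of these data known. Named are all members, the highest, lowest and 2 most abundant genes of each pathway list over the floor, the 2 most abundant of each marker list, and Foxf1a, with most marker lists given as sums; a sum of the B cell list is not reported here. Other names were chosen after their values were seen. Promoter sequences are from RefSeq, GRCm38.p6.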

Additional observations from a re-analysis of the deposited data

How the results depend on the processing

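No paired analysis was possible because each genotype had 1 pooled library, and for the same reason no replicate could be left out. Of 70 recomputed member values, 68 moved by less than their counting error. The other 2 arose from the most abundant transcript alone, with log2 ratios of 0.88 for Nfkb2 and 0.31 for Tnip1, in place of 0.39 and 0.04, and this setting put 2 members past 1.5-fold. Not all 70 were free to move. Every member transcript carried the deposited status OK, so keeping only those changed nothing, and a gene with 1 transcript equals its most abundant transcript. Relb ranged from 0.59 to 0.81, past 1.5-fold in each setting that kept that threshold. At a threshold 25% above equality, or the inverse, 3 members, 35 pathway genes and 2762 of all genes were higher and 0, 6 and 1663 lower. At 2-fold 0 members, 7 pathway genes and 485 of all genes were higher and 0, 1 and 162 lower. With a floor of mean FPKM 5, 745 of all genes were higher and 392 lower, from fewer genes counted, and with a pseudocount of 3, 371 were lower. Without a floor the ligand list had a median log2 ratio of 0.051, since 5 scarce ligands then entered. Depth limits Rel and Nfkbie most: at about 47 and 113 reads in the knockout library, their counting intervals ran from 0.743 to 1.69 and from 0.920 to 1.57.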
